A study of Mus musculus with 16 samples.

Results

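The transcripts described here encode the subunits of the mitochondrial oxidative phosphorylation system. Members were the genes whose name on the array, or whose current symbol, began with Nduf and a subunit letter and number, Uqcr, Cox4 to Cox8 or Atp5, or was one of Sdha, Sdhb, Sdhc and Sdhd. This gave 85 genes, read from 116 probes, of the 24373 features tested. Of these, 82 encode a subunit: 35 belong to complex I, 4 to complex II, 8 to complex III, 18 to complex IV and 17 to complex V. The other 3 match by name only, namely the supercomplex factor Cox7a2l, Dmac2l (listed as Atp5s) and Emc8 (listed as Cox4nb), and 5 genes were found only through their current symbol. The rule itself uses names and no measured value. Each gene is represented by its brightest probe.

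RNA came from whole ovaries of mice aged 1 year, on single-colour arrays, with 4 arrays in each of 4 groups. The control ovaries carried one allele of each estrogen receptor (ER), so they were not wild type. The Ex3aERKO ovaries came from ERα knockouts, the Ex3bERKO ovaries from ERβ knockouts, and the Ex3abERKO ovaries from mice lacking both receptors. The strain, the way each allele was removed and whether animals were pooled are not given in the sources used here. The sources also do not say that the 4 samples of a group were separate animals, and the p-values therefore cover the spread between these samples alone, which may be technical. In whole ovaries, fewer cells of a type and less RNA per cell cannot be told apart.

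Oxidative phosphorylation passes electrons from NADH through complex I, or from succinate through complex II, to ubiquinone, and on through complex III, cytochrome c and complex IV to oxygen. Complexes I, III and IV pump protons across the inner mitochondrial membrane, and complex V, the ATP synthase, makes ATP from the returning flow. The nuclear genes for the subunits are known to be regulated together, and steroid-making cells of the ovary are rich in mitochondria, where the first step of steroid synthesis takes place.

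Levels are log2 values relative to each array's 75th percentile of spot signal, so a level of 0 is a spot as bright as that percentile. Differences are on the same log2 scale, with the standard error of the limma fit after ±, and n = 4 in every group. A gene is called, and said to have risen or fallen, where the Benjamini-Hochberg adjusted p over all 24373 features was under 0.05. Counts at an unadjusted p under 0.05, counts reading below 0 and counts below every control on a single array are given without the share over all features. They describe the members and show no excess over other features. The 75th percentile ranged from 1211 signal units on Ex3abERKO 3 to 1806, and 80.4% to 87.6% of spots were well above background. All 82 subunit genes but 2 were well above background on all 16 arrays. The exceptions were the testis isoforms Cox7b2 (12 arrays) and Cox8c (10 arrays). The Esr1 probe, for ERα, read -2.38 ± 0.38 in Ex3aERKO and -1.63 ± 0.38 in Ex3abERKO against control (limma adjusted p = 0.00175 and 0.00655). The Esr2 probe, for ERβ, read -1.97 ± 0.51 in Ex3abERKO (limma adjusted p = 0.0132) but 0.43 ± 0.51 in Ex3bERKO (limma adjusted p = 0.913). Without knowledge of the deleted stretch of either gene, these probes do not check the labels. A single array stood highest in marker transcripts of liver (Ex3aERKO 2), oviduct (Ex3abERKO 2) or erythroid cells (control 4, against the other controls). Erythroid sums on all Ex3aERKO and Ex3abERKO arrays were also above those of the other controls. Counts are also given without these 3 arrays.

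Upstream sequences of 4 genes are printed for reference, chosen for the subunits on which the results turn: the called subunit of complex V with the largest decrease (Atp5g3), the brightest subunit of complex IV (Cox6a1), the called subunit of complex III with the largest decrease (Uqcrfs1) and the subunit that rose in Ex3abERKO (Cox8b). Each is the 250 bases before the annotated start in RefSeq on GRCm38.p6, written 5′ to 3′ along the gene, and all 4 genes lie on the minus strand. Capitals mark matches, on either strand, to the letters GCGCATGCG (bound by NRF1), CCGGAAG (ETS factors, GABP among them), AAGATGGC (YY1), AAGGTCA (estrogen-related receptors, ERR) and CCAAT (NF-Y). The Atp5g3 stretch is chr2:73911327-73911576, with an ERR match starting at -52 and a CCAAT match at -72. The Cox6a1 stretch is chr5:115348959-115349208 and holds a pair of overlapping NRF1 matches, an ETS match at -16 and a CCAAT match at -74. The Uqcrfs1 stretch, chr13:30545317-30545566, and the Cox8b stretch, chr7:140900447-140900696, hold none of the 5.
Atp5g3: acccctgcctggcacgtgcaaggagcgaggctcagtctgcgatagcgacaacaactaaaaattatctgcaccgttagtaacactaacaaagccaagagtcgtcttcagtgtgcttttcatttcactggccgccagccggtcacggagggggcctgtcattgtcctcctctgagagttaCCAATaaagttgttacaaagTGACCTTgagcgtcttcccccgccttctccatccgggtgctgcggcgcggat
Cox6a1: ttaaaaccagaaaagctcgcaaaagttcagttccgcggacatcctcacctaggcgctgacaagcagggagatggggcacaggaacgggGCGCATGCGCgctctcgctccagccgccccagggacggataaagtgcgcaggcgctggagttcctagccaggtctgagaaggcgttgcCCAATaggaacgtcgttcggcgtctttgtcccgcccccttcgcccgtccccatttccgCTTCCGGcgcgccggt
Uqcrfs1: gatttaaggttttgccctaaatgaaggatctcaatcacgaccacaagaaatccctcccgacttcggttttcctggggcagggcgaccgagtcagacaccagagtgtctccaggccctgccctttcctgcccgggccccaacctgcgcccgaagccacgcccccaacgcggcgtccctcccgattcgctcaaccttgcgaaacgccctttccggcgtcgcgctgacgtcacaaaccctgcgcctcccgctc
Cox8b: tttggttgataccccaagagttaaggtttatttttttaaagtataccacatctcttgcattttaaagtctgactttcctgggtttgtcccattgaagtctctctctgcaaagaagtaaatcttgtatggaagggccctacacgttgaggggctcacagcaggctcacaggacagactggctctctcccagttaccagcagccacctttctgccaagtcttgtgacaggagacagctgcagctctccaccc

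Promoters of 300 bases (250 before and 50 after the start) were matched for 69 of the 85 members, 67 of them subunits, and 5 members had more than 1. The NRF1 letters occurred in 11.9% of the 67 subunit genes and in 1.95% of the 27025 genes of the RefSeq table. The ETS letters occurred in 25.4% against 9.93%, the YY1 letters in 14.9% against 3.19%, and the ERR letters in 11.9% against 5.38%. CCAAT occurred in 44.8% against 41.1%. A match of letters is a description of these windows and not a binding site. Among the 16 genes with a promoter that fell in Ex3abERKO, 2 held the NRF1 letters, 4 the ETS letters, 1 the YY1 letters and 1 the ERR letters. Among the 50 that were not called there, 6 held the NRF1 letters, 13 the ETS letters, 9 the YY1 letters and 7 the ERR letters.

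In ovaries lacking both receptors, some subunit transcripts fell against control, by modest amounts, and most were not called. Of the 85 members, 20 were called lower, or 23.5%, where 11.7% of all features were called lower. A single member, Cox8b, was called higher, where 10.6% of all features were. Those named here were lower by between 0.41 (Atp5g2) and 0.97 (Ndufc1) on the log2 scale. On 22 of the 85 members every Ex3abERKO array lay below every control array, which held for 13.4% of all features, and 17 of the 20 called genes were among them. Of the 3 members that are no subunit, Cox7a2l read 0.18, Dmac2l -0.28 and Emc8 -0.42, and none was called by limma (adjusted p from 0.0928 to 0.44). The median over the 82 subunits was -0.36, beside -0.10 over all features, and 75 of the 82 read below 0. Without the 3 arrays named above, 4 members fell, Atp5g3, Ndufs8 and Uqcrfs1 among them, where 5.96% of all features did. The subunit median was then -0.19, beside -0.11 over all features. Under normexp 7 of the 85 members fell beside 6.78% of all features, and under median scaling 9 beside 9.29%. Under quantile normalization 35 fell beside 12.3%.

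The subunit median lay below the median of all features in the reported values and in 29 of 30 other settings, but 0.11 above it when the background was corrected by normexp, a model that separates signal from local background. That setting moved the median of all features from -0.10 to -0.36 and left the subunit median at -0.25. Part of the 30 settings could not move the difference from all features and gave the reported value. These were the other variance model, the replicate block, fitting only the groups compared and leaving out an array of a group outside the comparison. Median scaling and the value table shift each array by a constant, or nearly so. The difference from all features was then -0.25 in both, as in the reported values. Most features are dimmer than the subunit probes. Against the 6469 features at least as bright as the dimmest widely expressed subunit, at a mean signal of 2701, the subunit median lay 0.26 lower. It lay lower in all 30 settings, by 0.14 to 0.34, and part of these settings could not move that difference either. That cut sets a floor and does not match brightness, since 38 widely expressed subunits had a mean signal of at least 37953. A shift that depends on brightness is therefore not removed by it.

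**Figure D1:**
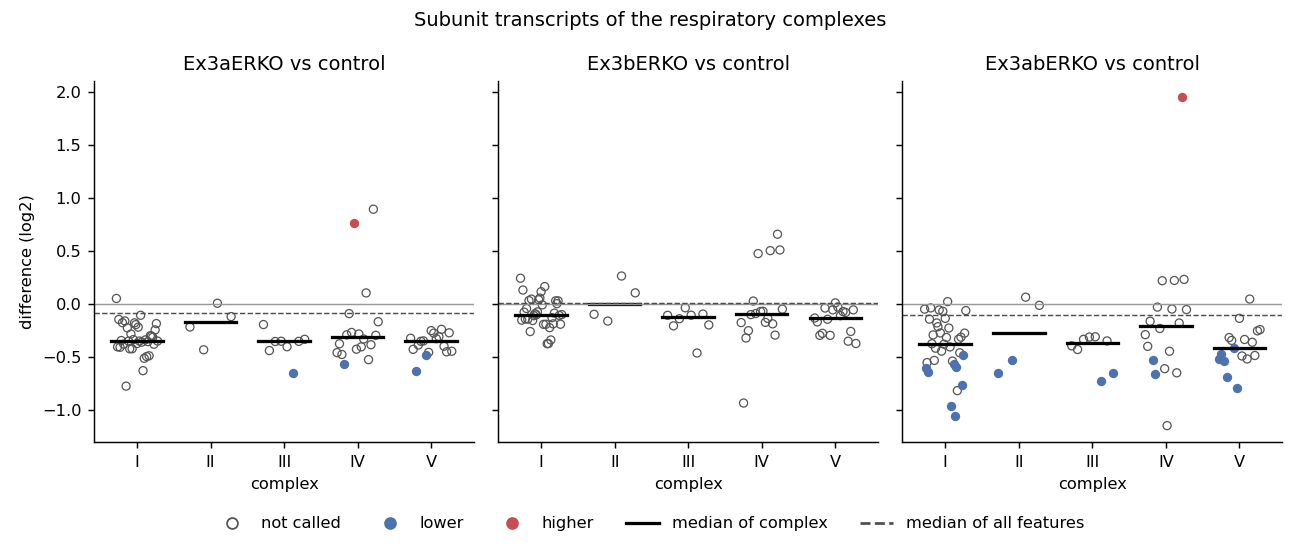
Each circle is 1 subunit gene. The vertical axis is its log2 difference from control in Ex3aERKO, Ex3bERKO or Ex3abERKO, split by complex; filled circles were called, bars are the median of the complex and the dashed line is the median of all features. In Ex3abERKO the medians of the 5 complexes lie between -0.41 and -0.21, below the dashed line at -0.10, a position that the normexp setting turns for the subunits as a whole.

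Complex I takes electrons from NADH, and its peripheral arm holds the flavin and the iron-sulfur clusters. In Ex3abERKO, 8 of its 35 subunits fell, none rose, and the median was -0.38. The module that binds NADH had 3 of 10 members called lower (median -0.47), and the module that binds ubiquinone had 3 of 5 (median -0.60). The membrane arm, which pumps protons, had 2 of 19 (median -0.32), where 11.7% of all features were called lower. The difference between these modules was not tested, since the choice of arm was made with these values known.

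Ndufs8 carries iron-sulfur clusters in the ubiquinone module (probe at mm7 chromosome 19, 3806006 to 3806374, minus strand). Control arrays read 1.98, 2.15, 2.25 and 2.26, Ex3aERKO arrays 1.92, 1.38, 1.60 and 2.22, Ex3bERKO arrays 2.35, 2.28, 2.09 and 2.04, and Ex3abERKO arrays 1.49, 1.34, 1.51 and 1.22. The Ex3abERKO arrays did not overlap with control or Ex3bERKO, while Ex3aERKO overlapped with both. Ndufs8 was 1.71-fold lower in Ex3abERKO than in control, at -0.77 ± 0.17 (limma adjusted p = 0.00537).

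Among the other complex I subunits that fell in Ex3abERKO were Ndufc1 (-0.97 ± 0.23), Ndufa12 (-0.65 ± 0.21), Ndufa10 (-0.61 ± 0.15), Ndufs3 (-0.60 ± 0.18), Ndufs1 (-0.57 ± 0.14) and Ndufv1 (-0.48 ± 0.17), with limma adjusted p from 0.0073 to 0.0493. Ndufs1 and Ndufv1 hold iron-sulfur clusters on the path from NADH. The brightest complex I probe, for the membrane-arm subunit Ndufa13 (chromosome 8, 68348874 to 68348933), read 6.25, 6.08, 6.40 and 6.48 in control and 6.18, 5.82, 6.64 and 6.0 in Ex3abERKO. It read 6.22, 5.78, 5.82 and 5.99 in Ex3aERKO and 6.25, 6.23, 6.11 and 6.06 in Ex3bERKO. These groups overlapped, Ex3abERKO 3 was the highest of all 16 arrays, and the difference of -0.15 ± 0.17 between Ex3abERKO and control was not called (limma adjusted p = 0.627). At the other end of the complex, Ndufb7 read 0.02 ± 0.18.

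Complex II, succinate dehydrogenase, also belongs to the citric acid cycle. Its catalytic pair fell in Ex3abERKO: the flavoprotein Sdha by 1.57-fold (-0.65 ± 0.15, limma adjusted p = 0.00753) and the iron-sulfur subunit Sdhb (-0.53 ± 0.16, limma adjusted p = 0.025). The membrane anchors Sdhc and Sdhd were not called, at 0.06 ± 0.17 and -0.01 ± 0.24. The probe for Sdha (chromosome 13, 71255611 to 71255670) read 2.41, 2.37, 2.45 and 2.53 on control arrays, 2.38, 2.14, 2.30 and 2.06 on Ex3aERKO arrays, 2.50, 2.29, 2.10 and 2.48 on Ex3bERKO arrays, and 1.81, 1.67, 2.16 and 1.52 in Ex3abERKO. Every Ex3abERKO array was below every control array. The Sdhd probe (chromosome 9, 50575107 to 50575166) read 3.75, 4.06, 4.01 and 4.17 on control arrays, 4.17, 3.79, 3.84 and 3.71 on Ex3aERKO arrays, 4.36, 4.22, 3.88 and 3.95 on Ex3bERKO arrays, and 3.92, 3.62, 4.81 and 3.59 in Ex3abERKO. For Sdhd the groups overlapped and Ex3abERKO 3 was again the highest array. With 4 subunits, the complex II median of -0.27 is the middle of these 2 pairs. Of all features, 11.7% were called lower in Ex3abERKO.

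Complex III passes electrons from ubiquinol to cytochrome c. All 8 members matched by the rule read below 0 in Ex3abERKO, from -0.73 to -0.31 (Uqcrc2), and 2 fell: the Rieske iron-sulfur protein Uqcrfs1 and the small subunit Uqcrq (-0.65 ± 0.20, limma adjusted p = 0.027). Of all features, 11.7% were called lower. The Uqcrfs1 probe (chromosome 13, 29906041 to 29906100) read 4.65, 4.17, 4.52 and 4.47 on control arrays, 3.86, 3.62, 3.79 and 3.93 on Ex3aERKO arrays, 4.09, 4.00, 3.93 and 3.92 on Ex3bERKO arrays, and 3.93, 3.42, 4.01 and 3.54 in Ex3abERKO. Every array of the 3 knockout groups was below every control array. In Ex3abERKO the level was 1.66-fold lower (-0.73 ± 0.16, limma adjusted p = 0.0046).

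The brightest complex III probe, for the hinge protein Uqcrh (chromosome 4, 115443478 to 115443537), read 7.04, 6.87, 6.99 and 7.27 on control arrays, 6.92, 6.56, 6.65 and 6.62 on Ex3aERKO arrays, 7.02, 7.14, 7.0 and 6.62 on Ex3bERKO arrays, and 6.60, 6.37, 7.41 and 6.37 in Ex3abERKO. Of the Ex3abERKO arrays, 3 lay below every control array and Ex3abERKO 3 lay above all of them. Uqcrh was not called (-0.35 ± 0.21, limma adjusted p = 0.275).

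Complex IV, cytochrome c oxidase, reduces oxygen to water. Its catalytic core is encoded by mitochondrial DNA, and the members here are the nuclear subunits around it, several of which have a second isoform restricted to some tissues. Among the 11 widely expressed subunits, 2 fell in Ex3abERKO, namely Cox6a1 and Cox5b (-0.53 ± 0.15, limma adjusted p = 0.0228), and the median was -0.29. Over all 18 nuclear subunits of the complex this was 11.1% called lower, beside 11.7% of all features. Cox4i1 (-0.29 ± 0.15), Cox6b1 (-0.23 ± 0.23), Cox7a2 (-0.45 ± 0.23), Cox8a (-0.18 ± 0.17) and Ndufa4 (-0.05 ± 0.27) were not called. The Cox6a1 probe (chromosome 5, 114566550 to 114566609) read 7.90, 7.30, 7.68 and 7.70 on control arrays, 7.42, 7.29, 7.30 and 7.40 on Ex3aERKO arrays, 7.47, 7.72, 7.67 and 7.31 on Ex3bERKO arrays, and 7.10, 6.78, 7.31 and 6.75 in Ex3abERKO. The highest Ex3abERKO array, number 3, just passed the lowest control array, and the other 3 lay below every control. The difference for Cox6a1 was -0.66 ± 0.17 (limma adjusted p = 0.0112).

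The 7 tissue-restricted isoforms of complex IV had a median of 0.22 in Ex3abERKO, with 1 called. Cox8b, the isoform of heart, skeletal muscle and brown fat (probe at chromosome 7, 137316216 to 137316275), read -3.80, -3.59, -4.54 and -3.74 on control arrays, -2.55, -3.04, -2.65 and -3.86 on Ex3aERKO arrays, -2.83, -2.76, -3.80 and -3.64 on Ex3bERKO arrays, and -2.14, -2.30, -1.61 and -1.83 in Ex3abERKO. All 4 Ex3abERKO arrays lay above the other 12. Cox8b rose 3.86-fold (1.95 ± 0.32, limma adjusted p = 0.000827) but was not called under normexp (0.88, limma adjusted p = 0.227, the highest of the 30 other settings, the next being 0.0076), and its mean signal was 218 units. It read 0.89 in Ex3aERKO and 0.66 in Ex3bERKO against control, and neither was called.

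Of all features, 10.6% were called higher in Ex3abERKO and 11.7% lower. Beside Cox8b, 5 of 8 genes of the uncoupling and brown fat list rose in Ex3abERKO and none fell. They were Cidea (6.41 ± 0.58), Elovl3 (3.83 ± 0.85), the coactivator Ppargc1a (1.21 ± 0.28), the deiodinase Dio2 and the uncoupling protein Ucp1. Under normexp 2 of the 8 rose (median 0.49, beside 1.28 as reported), and without the 3 arrays 2 rose (median 1.32). The summed linear level of that list, in units of the 75th percentile, ran from 2.26 to 2.63 on control arrays and from 9.10 to 17.8 on Ex3abERKO arrays. Of 8 adipocyte markers 2 rose (median 0.81), and 1 rose without the 3 arrays (median 0.24). Their sum ran from 19.4 to 43.2 in control and from 63.6 to 112 in Ex3abERKO. Of 10 striated muscle markers none rose and 1 fell, and their sum ran from 1.66 to 1.89 in control and from 1.40 to 2.12 in Ex3abERKO. The part of adipose tissue in the Cox8b value was not tested.

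Among the other isoforms, Cox7a1 of heart and muscle read 3.28, 1.5, 1.73 and 2.56 on control arrays, 2.32, 1.91, 1.8 and 1.90 on Ex3aERKO arrays, 1.83, 2.69, 2.46 and 1.82 on Ex3bERKO arrays, and 1.10, 0.43, 2.11 and 0.83 in Ex3abERKO. The control arrays themselves spread widely, and the difference of -1.15 ± 0.40 was not called (limma adjusted p = 0.0503). Cox7a1 was near the threshold: 7 of 13 other settings that kept all arrays of the comparison called it lower. There the limma adjusted p ran from 0.00609 to 0.138. Of the 16 fits that left out 1 array, 13 did not call it. Cox6b2, an isoform best known from testis, is described with the comparison in which it was called. The muscle isoform Cox6a2 read -1.85, -2.22, -2.05 and -1.76 in control and -2.17, -1.93, -2.37 and -1.53 in Ex3abERKO. Its Ex3aERKO arrays read -1.53, -2.19, -2.49 and -2.03 and its Ex3bERKO arrays -1.76, -2.61, -1.8 and -1.60, so that all groups overlapped. The lung-enriched Cox4i2 read -4.08, -4.28, -4.12 and -4.71 on control arrays, -4.73, -5.26, -4.65 and -4.06 on Ex3aERKO arrays, -6.05, -6.37, -4.34 and -4.17 on Ex3bERKO arrays, and -4.54, -4.46, -6.04 and -3.76 in Ex3abERKO. Both genes had overlapping groups, with Ex3abERKO against control at -0.03 ± 0.25 for Cox6a2 and -0.40 ± 0.52 for Cox4i2.

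The testis isoforms were near background. Cox7b2 was well above background on 2 control, 3 Ex3aERKO, 4 Ex3bERKO and 3 Ex3abERKO arrays. It read -5.85, -7.78, -5.32 and -6.55 on control arrays, -7.45, -6.18, -6.09 and -5.35 on Ex3aERKO arrays, -5.63, -6.26, -5.43 and -6.16 on Ex3bERKO arrays, and -6.35, -6.52, -6.32 and -5.43 in Ex3abERKO. Cox8c was well above background on 2, 2, 4 and 2 arrays of the same groups. It read -6.88, -6.89, -6.64 and -6.78 on control arrays, -6.40, -7.40, -6.31 and -8.27 on Ex3aERKO arrays, -6.21, -6.37, -6.34 and -6.24 on Ex3bERKO arrays, and -7.02, -6.83, -6.41 and -6.0 in Ex3abERKO. Neither isoform was called, at 0.22 ± 0.50 for Cox7b2 and 0.23 ± 0.35 for Cox8c, both of which read below 0 under normexp.

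**Figure D2:**
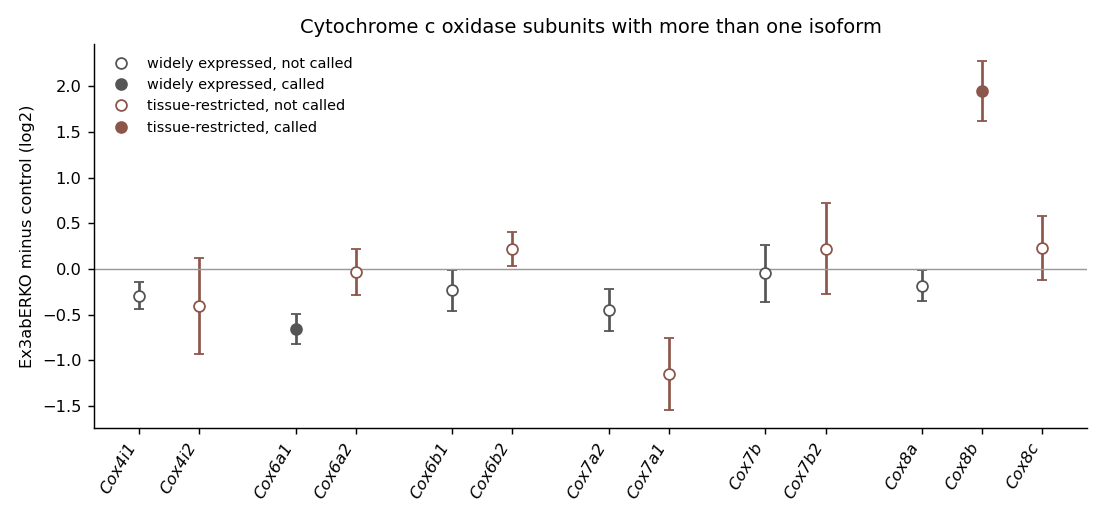
The vertical axis is the log2 difference between Ex3abERKO and control, with its standard error, for the complex IV subunits that have more than 1 isoform; colour separates widely expressed from tissue-restricted isoforms and filled points were called. Cox8b stands at 1.95 and Cox6a1 at -0.66.

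Complex V is a rotary enzyme with a catalytic F1 head, a ring of c subunits that turns in the membrane, and a stalk that joins them. In Ex3abERKO 6 of its 17 subunits fell and the median was -0.41. Of all features, 11.7% were called lower, and their median was -0.10. Of the 5 subunits of the F1 head 4 fell, namely Atp5a1 (-0.52 ± 0.15), Atp5b (-0.48 ± 0.15), Atp5c1 (-0.54 ± 0.17) and Atp5d (-0.69 ± 0.21), with limma adjusted p from 0.0225 to 0.0328. The c ring is a single protein encoded by 3 genes, of which Atp5g3 and Atp5g2 (-0.41 ± 0.14, limma adjusted p = 0.0394) fell and Atp5g1 read -0.35 ± 0.14 (limma adjusted p = 0.0915). None of the 9 stalk and membrane subunits was called by limma (2 at an unadjusted p under 0.05), and their median was -0.34.

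Atp5g3 had both the brightest probe and the largest decrease of complex V (chromosome 2, 73752178 to 73752237, minus strand). Its control arrays read 6.83, 7.10, 6.94 and 7.25, Ex3aERKO arrays 6.96, 6.19, 6.42 and 6.71, Ex3bERKO arrays 7.16, 6.75, 6.88 and 7.11, and Ex3abERKO arrays 6.21, 6.13, 6.47 and 6.14. The Ex3abERKO arrays lay below all control and all Ex3bERKO arrays, while Ex3aERKO overlapped with every group. Atp5g3 fell 1.74-fold in Ex3abERKO (-0.80 ± 0.18, limma adjusted p = 0.00529).

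**Figure D3:**
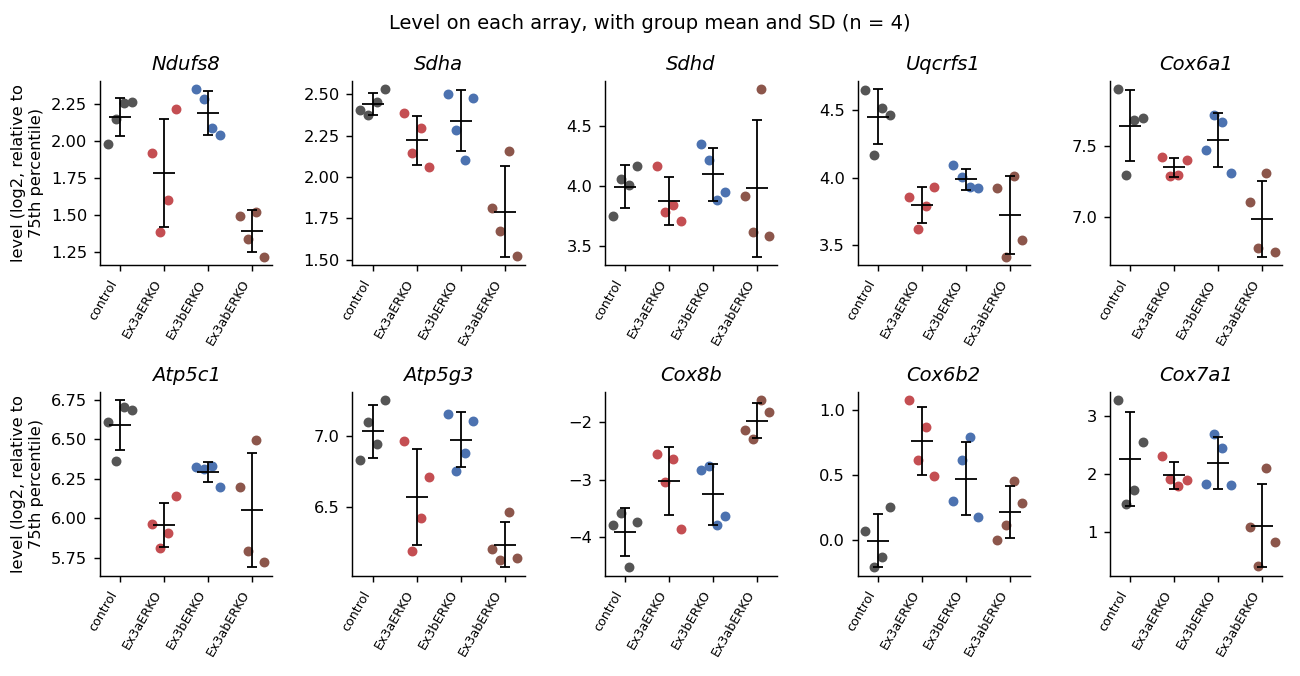
Each point is 1 array, with its log2 level relative to the 75th percentile on the vertical axis, for 10 members in the 4 groups; bars are the group mean and SD (n = 4). Ndufs8 in Ex3abERKO (1.22 to 1.51) lies below all control arrays, Cox8b in Ex3abERKO (-2.30 to -1.61) lies above all other arrays, and Uqcrfs1 is lower on all 12 knockout arrays than on any control array.

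Subunits that themselves carry a flavin, heme or iron-sulfur cluster in complexes I to III were called lower in 6 of 10 cases (median -0.51), and the other subunits of these complexes in 6 of 37 (median -0.35). This grouping was drawn after the values were seen, and the difference was not tested. Of all features, 11.7% were called lower in Ex3abERKO, and their median was -0.10. Split by signal strength, 12 of the 37 dimmer widely expressed subunits fell in Ex3abERKO (median -0.46) and 8 of the 38 brighter ones (median -0.34). In Ex3aERKO 1 of the dimmer and 3 of the brighter ones fell, where 4.19% of all features did. Their medians were -0.35 and -0.35, and the split was not tested.

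The Ex3abERKO arrays spread more widely in their subunit median (SD 0.31) than the arrays of the other groups (SD 0.12 to 0.18). Against the control mean, the median over the 82 subunits was -0.31, -0.64, 0.07 and -0.53 on Ex3abERKO arrays 1 to 4, so that array 3 lay within the control range of -0.10 to 0.18. On Ex3abERKO 3 the complex medians were 0.06 for complex I, -0.17 for II, 0.18 for III, 0.13 for IV and -0.03 for V. On that array 25 of the 82 subunits were below every control array, against 59, 71 and 70 on the other 3. For the 20 genes called lower, all were below every control on Ex3abERKO 1, 2 and 4 and 17 were on Ex3abERKO 3. Without Ex3abERKO 3, which also had the lowest 75th percentile, the subunit median was -0.49, beside -0.12 over all features, and 46 members fell. The share of all features called lower in that fit is not given here, so the count shows no excess over other features.

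**Figure D4:**
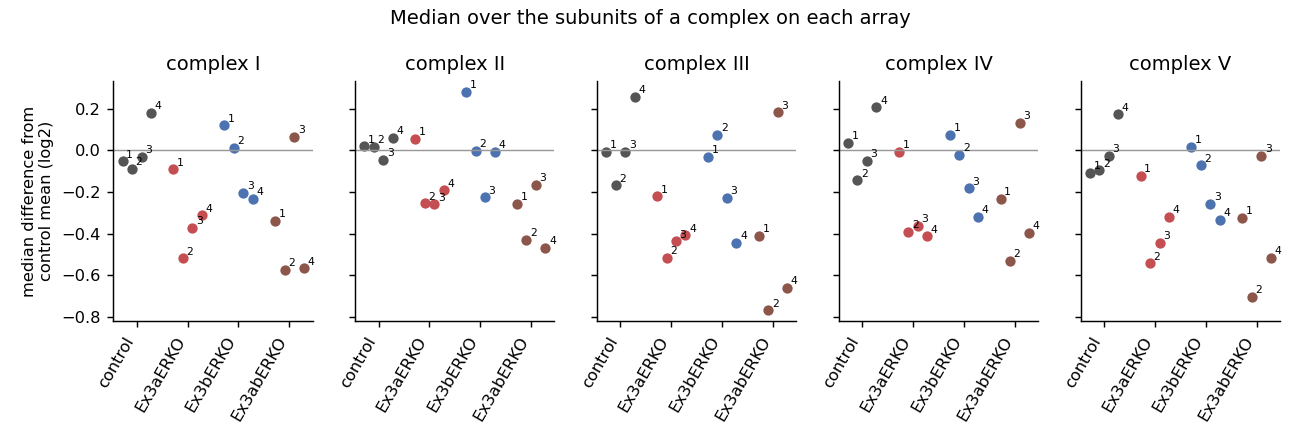
Each point is the median over the subunits of a complex on 1 array, as a log2 difference from the control mean, in 5 panels for complexes I to V. In complex I the Ex3abERKO arrays span -0.57 to 0.06 and the control arrays -0.09 to 0.18.

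The 16 arrays lay on 4 slides. Each group had 1 array on slide 1 and 1 on slide 4. Slide 2 lacked Ex3bERKO and slide 3 lacked Ex3abERKO, and each carried 2 arrays of the other of these groups. Within slides, the subunit median of Ex3abERKO against control was 0.11 on slide 1 (which held Ex3abERKO 3), -0.63 on slide 2 and -0.50 on slide 4. Of single members on slides 1, 2 and 4, Ndufs8 read -0.46, -0.85 and -1.04, Uqcrfs1 read -0.64, -0.80 and -0.98, and Atp5g3 read -0.37, -1.08 and -0.80. Cox8b read 2.19, 1.53 and 2.71. Arrays of different groups on the same slide deviated together: 17 of 22 such pairs had a correlation of their deviations from the group means over 0.1, against 8 of 74 pairs on different slides. With slide as a fixed block, 16 members fell in Ex3abERKO against control, where 10.8% of all features did.

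Of 22 members with several kept probes, 18 had probes of 1 sign in Ex3abERKO against control, and the sign differed for Cox5a, Emc8, Ndufa1 and Ndufa3. In 9 members another probe read lower than the brightest. For Atp5b the brightest probe read -0.48 and the others -1.04 and -0.99. For Sdha the others read less far from 0, at -0.46 and -0.21 beside -0.65.

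With ERα alone removed, subunit transcripts lay below control by a similar median, but few were called. In Ex3aERKO 4 members fell, where 4.19% of all features did, and 1 rose, where 3.84% of all features did. The subunit median was -0.35, beside -0.08 over all features, and 30 of the 85 members had an unadjusted p under 0.05. Under normexp the median of all features was -0.34 and the subunit median, at -0.21, lay 0.13 above it. Against the bright features, a set with a floor of signal that does not match brightness, the subunit median lay 0.22 lower. It lay lower in all 30 settings, part of which could not move it. The complex medians were -0.35 for complex I, -0.17 for II, -0.36 for III, -0.32 for IV and -0.35 for V. Neither the 35 subunits of complex I nor the 4 of complex II were called by limma, with 12 and 1 at an unadjusted p under 0.05.

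The 4 that fell in Ex3aERKO were Uqcrfs1 (-0.65 ± 0.16), Atp5c1 (-0.63 ± 0.17), Cox5b (-0.57 ± 0.15) and Atp5g2 (-0.48 ± 0.14), with limma adjusted p from 0.02 to 0.0408. The rotor subunit Atp5c1 (probe at chromosome 2, 9995249 to 9995308) read 6.61, 6.36, 6.70 and 6.69 on control arrays, 5.97, 5.82, 5.91 and 6.14 on Ex3aERKO arrays, 6.32, 6.31, 6.33 and 6.20 on Ex3bERKO arrays, and 6.20, 5.79, 6.49 and 5.72 in Ex3abERKO. All Ex3aERKO and all Ex3bERKO arrays were below every control array, and Ex3abERKO 3 overlapped with control. In Ex3abERKO, a comparison that shares the control arrays, Uqcrfs1, Atp5c1, Cox5b and Atp5g2 read -0.73, -0.54, -0.53 and -0.41. Under median scaling none fell and 1 rose in Ex3aERKO, under quantile normalization 2 fell and 1 rose, with slide as a fixed block 2 fell, and without the 3 arrays none fell and none rose.

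The per-array subunit medians of Ex3aERKO were -0.10, -0.52, -0.40 and -0.32, and 29, 71, 66 and 62 of the 82 subunits lay below every control array. The lowest, Ex3aERKO 2, was the array with the liver transcripts, where the summed level of 4 liver markers was 111 and that of every other array at most 11.9. The highest control array, control 4 at 0.18, was the one with erythroid transcripts (a sum of 133 against at most 15.2 in the other controls). In Ex3abERKO, the lowest array, number 2, had an oviduct sum of 87.0, against at most 36.0 elsewhere. The part of these tissues in the medians was not tested. Without the 3 arrays the subunit median was -0.20 in Ex3aERKO, beside -0.10 over all features. Within slides 1 to 4, the Ex3aERKO median was -0.49, -0.58, 0.01 and -0.31.

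With ERβ alone removed, no member was called by limma in either direction, where 0.398% of all features were called higher and 0.648% lower. By unadjusted p under 0.05, 3 members passed. Each of the 30 other limma settings also called none. The subunit median was -0.11, beside 0.01 over all features, and turned to 0.02 under normexp. It was -0.04 without control 4, -0.17 without Ex3bERKO 1 and -0.16 without Ex3bERKO 2. Across complexes the medians ran from -0.13 (complex V) to 0.00 (complex II), and those of complexes I and III turned above 0 under normexp. The arrays read 0.04, -0.03, -0.21 and -0.26, the first pair within the control range. Among the members with no overlap with control here were Uqcrfs1 and Atp5c1, as their values above show. Another was Atp5g2 (at most 4.97 in Ex3bERKO, at least 5.05 in control). None was called by limma, and the share of all features without overlap was not counted for Ex3bERKO.

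Between the knockouts, Ex3abERKO had 6 members lower than Ex3bERKO, where 8.43% of all features were lower, and 1 higher, where 8.26% were. The subunit median was -0.26, beside -0.10 over all features, and lay below it in all 30 settings, part of which could not move either median. It was -0.17 without Ex3abERKO 2 and -0.40 without Ex3abERKO 3. Among the 6 were Ndufs8 (-0.80 ± 0.17), Atp5g3 (-0.74 ± 0.18), Ndufa11 (-0.69 ± 0.21), Cox6a1 (-0.56 ± 0.17) and Sdha (-0.55 ± 0.15), with limma adjusted p from 0.0064 to 0.0349. Cox8b was higher by 1.29 ± 0.32 (limma adjusted p = 0.0148). Under median scaling 3 members were lower and 1 higher, under quantile normalization 24 were lower and 1 higher, with slide as a fixed block 3 were lower, and without the 3 arrays 2 were lower and 1 higher. Within slides the subunit median was 0.06 on slide 1 and -0.35 on slide 4.

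Against Ex3aERKO, no member was called by limma in Ex3abERKO in either direction, where 4.43% of all features were called higher and 3.34% lower, and 8 members had an unadjusted p under 0.05. The subunit median was -0.02, beside -0.01 over all features. Nearest to a call was Cox8b (1.06 ± 0.32, limma adjusted p = 0.061). Other limma settings called up to 6 members lower (quantile normalization) and up to 2 higher (slide as a random block). Between Ex3aERKO and Ex3bERKO no member was called by limma either, where 0.656% of all features were called higher and 1.7% lower. There 8 members had an unadjusted p under 0.05 and the subunit median was -0.22, beside -0.06 over all features.

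The interaction contrast asks whether the difference made by losing one receptor depends on the other. A single member was called lower, where 1.77% of all features were, and none was called higher by limma, where 1.83% were; 3 had an unadjusted p under 0.05. That member was Cox6b2 (probe at chromosome 7, 4326339 to 4326398). It read 0.07, -0.21, -0.13 and 0.25 on control arrays, 1.08, 0.62, 0.87 and 0.49 on Ex3aERKO arrays, 0.30, 0.62, 0.79 and 0.18 on Ex3bERKO arrays, and 0.00, 0.11, 0.46 and 0.29 in Ex3abERKO. The Ex3aERKO arrays were all above control, and the Ex3bERKO and Ex3abERKO arrays overlapped with it. Cox6b2 rose in Ex3aERKO by 0.77 ± 0.18 (limma adjusted p = 0.0182). Its differences of 0.47 ± 0.18 in Ex3bERKO and 0.22 ± 0.18 in Ex3abERKO were not called. The interaction was -1.02 ± 0.26 (limma adjusted p = 0.0415), and 12 of the 16 fits that left out 1 array gave an adjusted p above 0.05, over a range of 0.0243 to 0.0936. It was not called with slide as a fixed block (limma adjusted p = 0.0783) or with the replicate block (limma adjusted p = 0.0719), and was called with slide as a random block (limma adjusted p = 0.0335). Over its 29 other settings the adjusted p ran from 0.00765 to 0.13. On slides 1 to 4 Cox6b2 in Ex3aERKO differed from the control array by 0.55, 0.62, 1.28 and 0.62.

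Other genes of the mitochondrion were counted in the same fit, from lists named by function. Of all features, 11.7% were called lower and 10.6% higher in Ex3abERKO against control. Of 43 measured assembly factors, which build the complexes, 14 fell in Ex3abERKO against control and none rose (median -0.34). Coa7 (-0.86 ± 0.19) is a factor of complex IV, Bcs1l (-0.56 ± 0.13) inserts the Rieske protein into complex III, and Ndufaf1 (-0.63 ± 0.16) builds complex I. Of 14 genes for cytochrome c, ubiquinone synthesis and related carriers 8 fell (median -0.57), led by Coq9 (-1.12 ± 0.17), Coq3 (-1.21 ± 0.21) and cytochrome c1, Cyc1 (-1.09 ± 0.20), a complex III subunit whose name the rule does not match. Of 17 genes of the citric acid cycle and pyruvate dehydrogenase 9 fell (median -0.50), among them Dlst (-0.69 ± 0.12). Without the 3 arrays these counts were 2 of 43, 4 of 14 and 2 of 17.

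The mitochondrial lists with the largest shares called lower in Ex3abERKO were fatty acid oxidation, with 11 of 13 (median -0.86), and mitochondrial steroidogenesis, with 6 of 8 (median -2.55). Hadha (-1.05 ± 0.17), Hadh (-1.25 ± 0.21) and Hadhb (-0.91 ± 0.18) encode enzymes that shorten fatty acids, and Cyp11a1 (-3.48 ± 0.32) makes the first steroid, with electrons from Fdxr (-2.58 ± 0.29). Of 19 genes of protein import and proteolysis 11 fell (median -0.73), including the chaperone Hspd1 (-1.65 ± 0.24) and the protease Lonp1 (-1.29 ± 0.22). Without the 3 arrays the counts were 6 of 13, 6 of 8 and 5 of 19. Glycolysis had 2 of 14 called lower (Tpi1 and Pfkm, median -0.14) and the nucleotide and phosphate carriers 1 of 7 (Slc25a3, -0.63 ± 0.15). Both counts stand beside 11.7% of all features called lower. None of either list was called lower without the 3 arrays.

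Ribosomal proteins were counted by compartment, beside 11.7% of all features called lower in Ex3abERKO. Mitochondrial ones, which serve to translate the subunits encoded by mitochondrial DNA, had 23 of 78 called lower in Ex3abERKO (median -0.37), and 8 without the 3 arrays. Cytosolic ones had 3 of 79 (median -0.10, which turned to 0.02 under normexp and 0.05 without the 3 arrays). In Ex3aERKO the counts were 4 of 78 (median -0.33) and 13 of 79 (median -0.42), where 4.19% of all features were called lower. The difference between the lists was not tested.

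Of 20 regulators of mitochondrial biogenesis, 2 were called higher and 3 lower in Ex3abERKO, near the shares of all features (10.6% higher and 11.7% lower). Ppargc1a (1.21 ± 0.28) and the receptor gene Esrrg (0.71) were higher, and Ppara (-1.98 ± 0.28), which drives fatty acid oxidation genes, and the mitochondrial DNA helicase Twnk (-1.93 ± 0.29) were among those that fell. Nrf1, Gabpa, Esrra, Tfam and Yy1, whose proteins act on subunit promoters or on mitochondrial DNA, were not called. Of 7 antioxidant genes Sod2 (-1.07 ± 0.22) and Prdx3 (-1.0 ± 0.22) fell and Prdx5 (0.69 ± 0.18) rose.

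In Ex3aERKO against control the counts called lower were 1 of 43 assembly factors, 2 of 17 citric acid cycle genes, 1 of 14 electron carriers, 3 of 13 fatty acid oxidation genes, 6 of 19 import and protease genes and 5 of 8 steroidogenesis genes. Of all features, 4.19% were called lower in Ex3aERKO and 0.648% in Ex3bERKO. In Ex3bERKO, 1 steroidogenesis gene was called lower, with 5 of the 8 at an unadjusted p under 0.05. No gene of the other mitochondrial lists was called by limma there, and by unadjusted p under 0.05 up to 5 genes of a list passed.

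**Figure D5:**
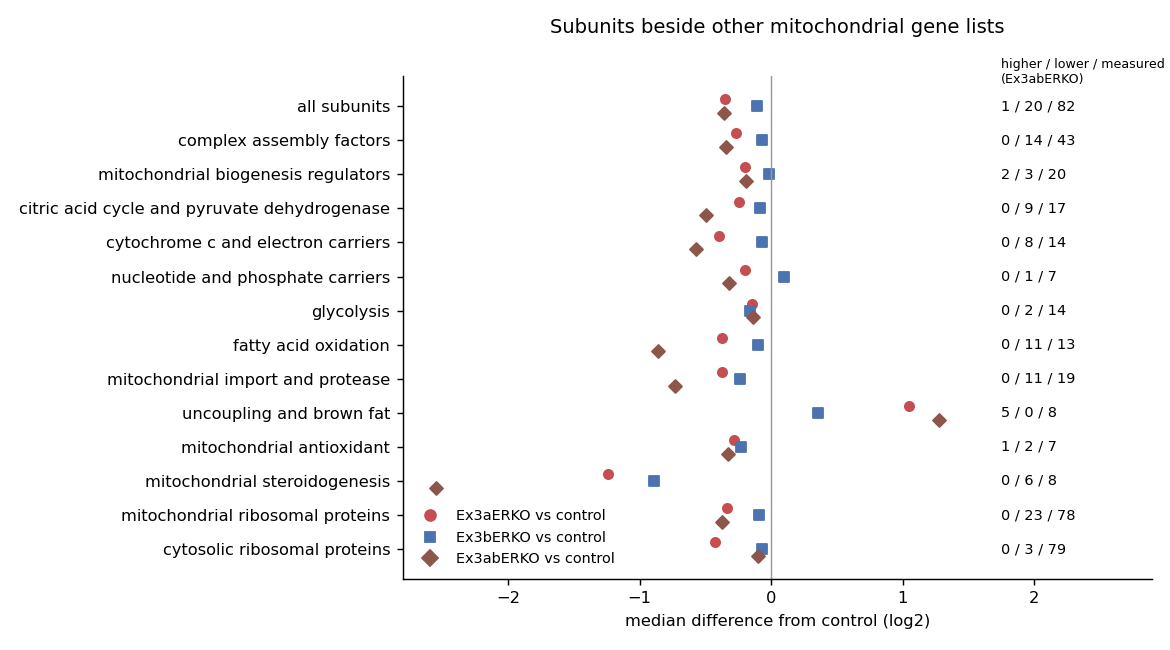
The horizontal axis is the median log2 difference from control over each list, with 1 symbol per knockout group and, at the right, the number called higher, called lower and measured in Ex3abERKO. The 82 subunits lie at -0.35 in Ex3aERKO, -0.11 in Ex3bERKO and -0.36 in Ex3abERKO, while fatty acid oxidation (-0.86) and steroidogenesis (-2.55) lie lower in Ex3abERKO; under normexp the Ex3bERKO median of the subunits is 0.02.

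Markers of several ovarian cell types moved with these groups. Their counts in Ex3abERKO stand beside 10.6% of all features called higher and 11.7% lower. Of 10 luteal markers 7 fell in Ex3abERKO and none rose, and their summed level ran from 133 to 387 on control arrays, 39.6 to 69.4 on Ex3aERKO arrays, 44.3 to 167 on Ex3bERKO arrays and 22.7 to 44.9 in Ex3abERKO. Of 10 granulosa markers 5 fell in Ex3abERKO, with sums from 134 to 246 in control and from 34.9 to 99.8 in Ex3abERKO. Of 9 oocyte markers 6 fell in Ex3abERKO and 7 in Ex3aERKO, with sums of 17.6 to 38.3 on control arrays, 5.35 to 10.5 in Ex3abERKO and 1.5 to 8.36 in Ex3aERKO. All 10 macrophage markers rose in Ex3abERKO (192 to 301 on control arrays, 619 to 695 in Ex3abERKO, 345 to 519 in Ex3aERKO).

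Of 10 Sertoli markers 9 rose and 1 fell in Ex3abERKO, with sums of 2.02 to 2.43 in control and 18.4 to 52.9 in Ex3abERKO. Of 8 stroma markers 5 rose and 1 fell, and of 10 endothelial markers 1 rose and 5 fell. The theca and Leydig list had 2 of 8 called higher and 3 lower, the oviduct list 4 of 8 higher, the liver list 1 of 4 higher, the smooth muscle list 1 of 8 higher, and none of 5 erythroid markers was called by limma (0 at an unadjusted p under 0.05). The part of these cell types in the subunit values was not tested.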

How the data were processed

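Total RNA from 16 whole-ovary samples was labelled with Cy3 and hybridised to Agilent whole mouse genome arrays. The deposited spot intensity values are Feature Extraction's processed signal, background-subtracted and not normalized between arrays, per the file headers. The submitters' processing notes name Feature Extraction 9.5. The authors' series table held the same linear intensity values for all 41174 probes, within a tolerance of 1e-04, with column medians of 149 to 253. Coordinates of probes follow the build of the array files (mm7).

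From these, log2 levels were computed from the deposited processed signal divided by each array's 75th percentile over 43379 non-control spots. Outlier spots (54 to 106 per array) were left out, saturated spots (0 to 7) kept, and spots of a probe averaged. A probe was kept when well above background on at least 4 of 16 arrays (36227 probes), and the brightest kept probe stood for a gene, leaving 24373 features, 18298 with a symbol. Probes were named by accession in RefSeq's table for GRCm38.p6 (22951), file symbol (6659) or an older symbol (3109), and 8455 had none. limma 3.58.1 in R 4.3.3 fitted 1 mean per group over all 16 arrays, with 12 residual degrees of freedom and no covariate, for 6 pairwise comparisons and the interaction (Ex3abERKO minus Ex3aERKO) minus (Ex3bERKO minus control). Tests were two-sided with Benjamini-Hochberg adjustment. The model was tested on simulated data. The number of arrays limits the precision.

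Values on every array are given for the called member of each comparison and complex with the largest difference, for tissue-restricted isoforms, for members called in the interaction and for the brightest member of each complex. From other lists, at most 3 called genes per comparison are named by adjusted p with their values. Dio2, Ucp1, Esrrg and the uncalled regulators were named after their values were seen. The members and lists were chosen with earlier results of these data known. Alternatives covered background, scaling, filter, probe choice, variance model, array weights, slide, replicate number, samples in the fit, the value table and each array left out. Of the members this rule names, 1 is not reported here. Protein sequences and exon positions were not used here.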

Additional observations from a re-analysis of the deposited data

Results flagged for a closer look

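Within groups of 4 arrays, 92 combinations of a group with a member or a complex median were checked for 1 array set apart from the other 3, and 2 stood out. Chance alone would give about 1 in 20, or 5%. For Atp5c1 in Ex3bERKO, the gap between array 4 (6.20) and the nearest of the others (6.31 to 6.33) was 0.830 of the range of the group. For the complex IV median in Ex3aERKO, the gap between array 1 (-0.01) and the others (-0.41 to -0.36) was 0.877 of the range.

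Cox6b2 passed the interaction test in the model without slide. The interaction was -1.02 ± 0.26 (limma adjusted p = 0.0415), from a difference of 0.77 between Ex3aERKO and control, and Ex3abERKO reading below Ex3bERKO. It was not called with slide as a fixed block (limma adjusted p = 0.0783), with the replicate block (limma adjusted p = 0.0719) or in 12 of the 16 fits that left out 1 array (adjusted p from 0.0243 to 0.0936 over the 16).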

How the results depend on the processing

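Under 30 other settings, Atp5g3, Ndufs8 and Uqcrfs1 were called lower in Ex3abERKO against control in every one, and Ex3bERKO against control called no member in any. Counts of members called moved more. Percentages in brackets are the shares of all features called lower. In Ex3abERKO against control, 20 were lower as reported (11.7%), 7 under normexp (6.78%, and none higher) and 9 under median scaling (9.29%). Under quantile normalization 35 were lower (12.3%), with array weights 54 (21%) and with only the groups compared 8 (8%). It was 4 without the 3 arrays, a setting chosen with the data seen. In Ex3aERKO against control, 4 were lower as reported (4.19%), 0 under normexp (2.4%), 0 under median scaling (3.24%) and 2 under quantile normalization (4.02%). With array weights 33 were lower (12.2%) and 2 higher. With slide as a fixed block 2 were lower (4.69%), with only the groups compared 2 (3.73%), and without the 3 arrays 0 (0 higher). In Ex3abERKO against Ex3bERKO, 6 were lower as reported (8.43%), 3 under normexp (3.35%, 0 higher) and 3 under median scaling (6.39%). Under quantile normalization 24 were lower (8.95%) and with array weights 33 (14.6%). With slide as a fixed block 3 were lower (3.98%), with only the groups compared 2 (4.76%) and without the 3 arrays 2. In Ex3abERKO against Ex3aERKO, where 0 were called, 6 were lower under quantile normalization, 1 with the mean of all probes, 1 lower and 1 higher with trend and robust variance, 2 lower and 1 higher with array weights, 1 higher with slide as a fixed block, and 1 lower and 2 higher with slide as a random block. The single interaction call fell to 0 under normexp, median scaling, slide as a fixed block, the replicate block and without the 3 arrays. The interaction median of complex V was 0.11 as reported and -0.16 under quantile normalization. That of complex IV was 0.13 as reported and -0.091 with array weights. The causes were not tested.

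Leaving out each array in turn gave 10 to 46 members lower and 1 to 1 higher in Ex3abERKO against control, 0 to 10 lower and 0 to 2 higher in Ex3aERKO against control, 3 to 26 lower and 0 to 1 higher in Ex3abERKO against Ex3bERKO, 0 to 1 lower in Ex3abERKO against Ex3aERKO, and 0 to 1 in the interaction. For Ex3abERKO against control the count lower was 10 without control 4 or Ex3abERKO 2, and 11 without control 1, control 3 or Ex3abERKO 4. It was 46 without Ex3abERKO 3. The share of all features lower in that comparison was 9.57% without control 4, 8.37% without control 1 and 7.46% without control 3. For Ex3aERKO against control the count was 0 without control 1, control 3, control 4, Ex3aERKO 2 or Ex3aERKO 3. The share of all features lower in those fits ran from 2.33% to 2.61%. The count was 8 without Ex3aERKO 4, where 5.28% of all features were lower, and 10 without Ex3abERKO 3. For Ex3abERKO against Ex3bERKO the count was 3 without Ex3bERKO 1, Ex3abERKO 2 or Ex3abERKO 4 and 26 without Ex3abERKO 3. Cox8b was not called there without Ex3bERKO 4. The share of all features lower in that comparison was 5.29% without Ex3bERKO 1. Shares for the fits without an Ex3abERKO array are not given here, so those counts show no excess over other features.

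Members that were not called changed sign. Against control, Ex3abERKO values were -0.64 for Cox7b2, -0.64 for Cox8c and 0.090 for Sdhd under normexp, where Cox8b in Ex3bERKO read -0.082. They were 0.015 for Cox6a2 and 0.032 for Sdhd under median scaling, 0.022 for Cox6a2 under quantile normalization, 0.062 for Cox6a2 and -0.16 for Cox7b2 with array weights, 0.062 for Cox6a2 and 0.048 for Sdhd with slide as a fixed block, 0.0063 for Sdhd with slide as a random block, 0.0066 for Sdhd from the value table, and 0.015 for Cox6a2, -0.012 for Sdhc and 0.17 for Sdhd without the 3 arrays. With 1 array left out the ranges were -0.72 to 0.047 for Cox4i2, -0.19 to 0.091 for Cox6a2, -0.25 to 0.57 for Cox7b2, -0.031 to 0.12 for Sdhc and -0.29 to 0.12 for Sdhd.

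Replicate numbers did not pair the samples: 7 of 24 same-number correlations were over 0.1 (-0.29 to 0.44), and 4 of 16 arrays correlated best with their own number. Of the 22 pairs on the same slide, 17 were over 0.1. With the replicate block, 17 members were lower in Ex3abERKO against control, all 17 among the 20, where 10.9% of all features were lower. Signal over background limits Cox7b2 and Cox8c.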
